A study of Syringa oblata with 2 samples.

Results

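In *S. oblata* leaves, 153 of the 73159 assembled unigenes were annotated as photoreceptors, as proteins that pass on their signal, or as relatives of these. A unigene was included where its best Swiss-Prot match was named as a phytochrome or phytochrome-linked protein, a cryptochrome, a photolyase, a phototropin, UVR8, a PIF factor, HY5, COP1 or a relative, a SPA protein, a FAR1 or FHY3 family protein, or a root phototropism or NPY protein. The choice used names only and no expression value, but it was made with earlier results of these data known. These names were found in 177 unigenes, and 24 of them, whose best match in the Nr protein database lies in rice (*Oryza*), were left out.

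*S. oblata*, a lilac, was grown outdoors without added water or fertilizer, either in natural light (Z0) or under black nets (Z1) that gave 40% to 50% shading and let 50% to 60% of the sunlight through. The nets stood from May until the leaves of both conditions were taken in September, and a darker net of the same study was not analysed here. RNA from leaves was sequenced in 2 libraries per condition (Z0-1, Z0-2, Z1-1 and Z1-2), which the study calls biological repeats. Which trees entered which library is not given in the sources used here, and a p-value here reflects the spread between libraries alone, which may be technical in part.

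Phytochromes absorb red and far-red light, cryptochromes and phototropins absorb blue light, and UVR8 absorbs UV-B. In *Arabidopsis*, lit phytochromes and cryptochromes restrain the COP1/SPA ubiquitin ligase, which in darkness marks the transcription factor HY5 for breakdown, and phytochromes also remove the PIF factors that promote elongation growth. Phototropins act through NPH3 and RPT2 proteins on bending, stomata and chloroplast position, and the FAR1 and FHY3 factors carry the far-red signal of phytochrome A.

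Expression was given in TPM, a level per transcript length scaled to the library total, and the TPM of each library summed to between 999297 and 999450. Read counts were not used here, so the depth of the libraries is unknown. The leaf markers were high in all 4 libraries, with summed levels of 12074 to 13508 TPM for the RuBisCO small chain (4 unigenes) and of 7863 to 8118 TPM for the chlorophyll a-b binding proteins (22 unigenes). The flower marker AGAMOUS (2 unigenes) reached at most 2.42 TPM and the root marker of the Casparian strip (1 unigene) at most 2.12 TPM. The 10 unigenes that matched a carlavirus, a plant RNA virus, took up 22.8% (Z0-1) and 13.9% (Z0-2) of all TPM, but 0.147% (Z1-1) and 0.0505% (Z1-2) under the nets. The virus share moved with the condition, so shading and virus level cannot be told apart in these libraries. Over all unigenes the median log2 fold change of Z1 against Z0 was 0.45, and it became 0.19 with median-ratio scaling (a shift of -0.27), 0.13 with TMM scaling (-0.33) and 0.25 without the virus-matched unigenes (-0.20). Single unigenes can shift by more than these medians. Among the light-signalling unigenes, log2 fold changes of up to 0.41 in size changed sign with the scaling.

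Of the light-signalling unigenes 5 passed the test between the conditions, a share near that of all unigenes. Z0 and Z1 were compared with limma on log2(TPM + 1) over all 73159 unigenes, and a unigene was called where the Benjamini-Hochberg adjusted p was under 0.05 and the fold change was over 2. In this test 5 of the 153 members were called (3.27%), 1 higher and 4 lower in Z1, while 5.0% of all unigenes were called, 3.20% higher and 1.80% lower. At an unadjusted p under 0.05 with the same fold, 8 members were higher and 9 lower in Z1 (11.1%), against 24.2% of all unigenes (16.5% higher and 7.71% lower). In 66 members both Z1 libraries were above both Z0 libraries and in 32 below (43.1% and 20.9%), against 41.5% and 18.2% of all unigenes and 59.7% in either direction. With TPM summed per Swiss-Prot entry, the photolyase alone of the 51 entries was called (4.26% of all entries were), and with TPM summed per Trinity component none of the 117 components was (0.0164% of all). A lower TPM in a leaf library can come from fewer cells that express the gene or from less RNA per cell, and these cannot be told apart.

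The called unigenes were the only match to the (6-4)DNA photolyase UVR3, 3 matches of the FAR1/FHY3 family and 1 of the UVR8 matches. The median log2 fold change of the 153 members was 0.21, below the 0.45 of all unigenes, and it was 0.01 without virus-matched unigenes, -0.06 with median-ratio scaling and -0.11 with TMM scaling. In TPM, 94 of 153 members (61.4%) had a positive log2 fold change, against 69.0% of all unigenes, and with median-ratio and TMM scaling 68 and 62 members had one.

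**Figure D1:**
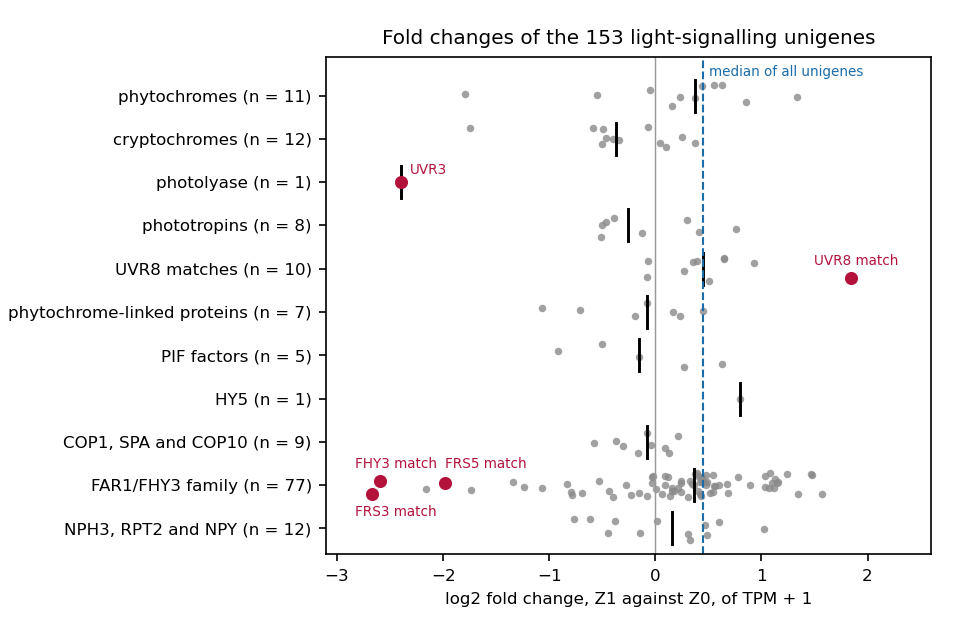
The log2 fold change of Z1 against Z0 on the log2(TPM + 1) scale (x axis) of each of the 153 unigenes (points), by class (y axis, with the number of unigenes). Black bars mark class medians, the dashed line marks the median of all unigenes at 0.45, and red points are the 5 unigenes that passed the test, 4 on the left and 1 on the right; for the FRS3 and FRS5 matches, listed at 0 in Z1, the position depends on the added 1.

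The summed level of the members was similar in the 4 libraries, with values of 1366, 1494, 1417 and 1396 TPM for Z0-1, Z0-2, Z1-1 and Z1-2. The highest class sums were those of the phototropins and cryptochromes. Phototropins summed to 399 and 414 TPM in natural light against 288 and 330 TPM under the nets, and cryptochromes to 313 and 377 TPM in the Z0 libraries, then 346 and 332 TPM in the Z1 libraries. The FAR1/FHY3 family had 77 of the 153 unigenes, and its summed level was 204 TPM (Z0-1), 215 TPM (Z0-2), 268 TPM (Z1-1) and 234 TPM (Z1-2). The 11 phytochrome unigenes summed to 20.04 and 34.4 TPM in natural light against 25.6 and 27.0 TPM under the nets.

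**Figure D2:**
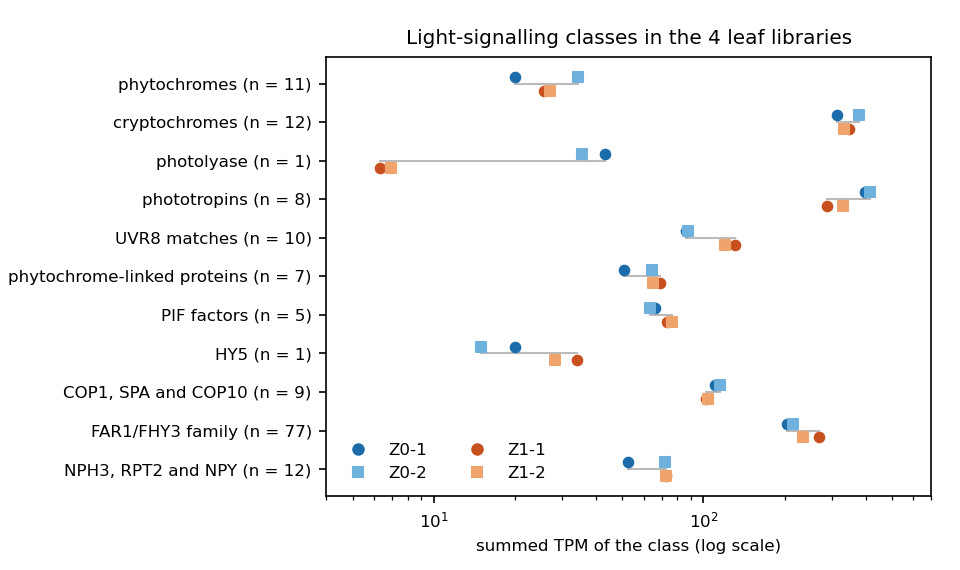
Summed TPM (x axis, log scale) of each class of light-signalling unigenes in the 4 libraries (blue Z0, orange Z1; circles repeat 1, squares repeat 2). The photolyase sits apart, with 35.4 and 43.3 TPM in the Z0 libraries, then 6.34 and 6.94 TPM in the Z1 libraries, and the phototropins and the COP1, SPA and COP10 class also have both Z1 libraries below both Z0 libraries.

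Among the phytochromes, the red light receptors, none of the 11 unigenes was called. Their sums overlapped between the conditions in TPM, and with median-ratio and TMM scaling both Z1 sums were below both Z0 sums. The unigene of highest level was phytochrome B (PHYB, DN27655_c0_g1, 4099 nt), the main receptor for red light in lit *Arabidopsis* plants, with 11.1 and 11.9 TPM in natural light against 10.2 and 12 TPM under the nets. The conditions overlapped, and the log2 difference was -0.05 with a 95% interval of -0.63 to 0.53. Phytochrome E (PHYE, DN27409_c0_g1, 2884 nt), which assists PHYB in *Arabidopsis*, was at 3.81 TPM (Z0-1), 11.5 TPM (Z0-2), 0.85 TPM (Z1-1) and 1.72 TPM (Z1-2). Both Z1 libraries lay below both Z0 libraries, but Z0-1 and Z0-2 were also far apart, and the log2 fold change of -1.79 (SE 0.55) did not pass the test (limma adjusted p = 0.119). Phytochrome C (PHYC, DN25597_c0_g3) was low, at 2.13 and 2.48 TPM in natural light against 3.01 and 2.74 TPM under the nets.

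Phytochrome A, the receptor for far-red and very weak light, was found only as fragments. Its 6 unigenes, of 210 to 1038 nt, matched 4 Swiss-Prot entries, and none had a mean above 1.87 TPM. They added up to 2.33 and 6.24 TPM in the Z0 libraries, then 10.2 and 8.54 TPM in the Z1 libraries, so both Z1 libraries were higher in sum. All 6 log2 fold changes were positive in TPM, from 0.16 to 1.33, as were 69.0% of those of all unigenes, and the lowest (DN24784_c0_g1) turned to -0.03 and -0.06 with median-ratio and TMM scaling. None was called, and 3 of the 6 did not overlap, against 59.7% of all unigenes. One fragment, DN38972_c0_g1 of 312 nt, was listed at 0 in both Z0 libraries and at 3.07 and 0.56 TPM in Z1.

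Cryptochromes, the blue light receptors, were among the most abundant members, and none of the 12 unigenes was called. Their sums overlapped in TPM, and with either scaling and without virus-matched unigenes both Z1 sums were below both Z0 sums. The longest cryptochrome 1 unigene (CRY1, DN37677_c0_g3, 2453 nt) had the highest level of all members, with 157 TPM (Z0-1), 203 TPM (Z0-2), 199 TPM (Z1-1) and 185 TPM (Z1-2). The conditions overlapped, and the log2 fold change of 0.10 turned to -0.27 with median-ratio scaling, to -0.36 with TMM scaling and to -0.19 without virus-matched unigenes. A fragment that matched CRY1 (DN29069_c0_g1, 585 nt) was at 49.4 and 58.4 TPM in natural light against 61.3 and 50.2 TPM under the nets, also with overlap. Summed over the 4 unigenes of the entry, CRY1 reached 243 and 300 TPM in the Z0 libraries, then 301 and 275 TPM in the Z1 libraries, with a log2 difference of 0.09 and a 95% interval of -0.46 to 0.65. Cryptochrome 2 (CRY2), a relative that is broken down in blue light in *Arabidopsis*, had a single unigene with 5.79 TPM (Z0-1), 7.42 TPM (Z0-2), 9.76 TPM (Z1-1) and 7.98 TPM (Z1-2). Its log2 difference of 0.38 was not called and became 0.05 with median-ratio scaling and -0.03 with TMM scaling.

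Cryptochrome DASH (CRYD, DN35341_c1_g3), a photolyase-like protein of chloroplasts and mitochondria, was lower in both Z1 libraries, at 52.3 and 60.8 TPM in natural light against 32.0 and 43.4 TPM under the nets. Its log2 fold change of -0.58 (SE 0.25) did not pass the test (limma adjusted p = 0.201). Another 5 unigenes had their best Swiss-Prot match in a cryptochrome DASH of the fungi *Gibberella zeae* and *Neurospora crassa*. They were short, of 214 to 566 nt, and added up to 10.2 and 7.62 TPM in the Z0 libraries, then 2.51 and 4.23 TPM in the Z1 libraries. From which organism they came was not tested.

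Among members with a mean of at least 10 TPM, the only one called was UVR3, the (6-4)DNA photolyase. This flavoprotein uses blue light to repair a type of DNA lesion made by UV-B. Its unigene (DN33774_c0_g1, 2183 nt) was at 43.3 and 35.4 TPM in natural light against 6.34 and 6.94 TPM under the nets. Both Z1 libraries lay far below both Z0 libraries, and the mean of Z1 was 0.169 of the mean of Z0. The log2 fold change was -2.39 (SE 0.22), with a 95% interval of -2.99 to -1.80 (limma adjusted p = 0.0340). The fold change was -2.82 with TMM scaling, -2.74 with median-ratio scaling and -2.68 without virus-matched unigenes, and the call held in these 3 fits. Trinity placed 3 more unigenes in the same component, a group assembled from overlapping reads. Of these, an unannotated unigene of 941 nt (DN33774_c0_g2) went the other way, from 3.22 and 0.87 TPM in Z0 to 19.2 and 19.9 TPM in Z1 (limma adjusted p = 0.0468). The component as a whole was at 49.9 TPM (Z0-1), 39.2 TPM (Z0-2), 26.4 TPM (Z1-1) and 30.04 TPM (Z1-2), a log2 difference of -0.63 that was not called (limma adjusted p = 0.159).

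**Figure D3:**
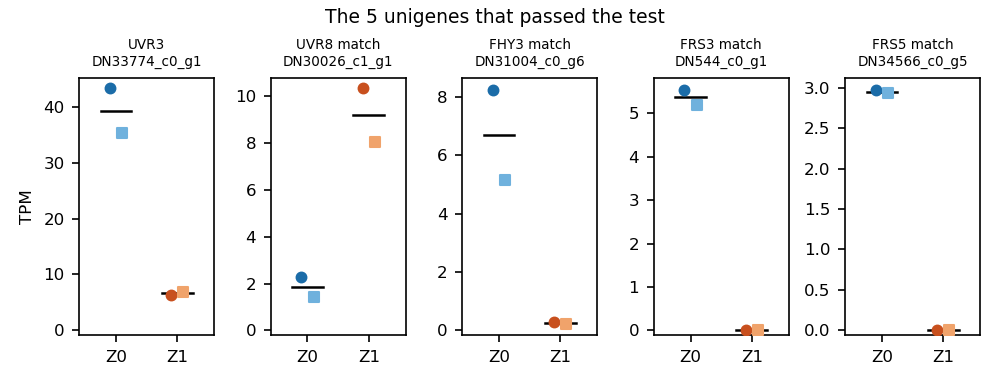
TPM (y axis, starting at 0 and scaled per panel) of the 5 called unigenes in Z0 and Z1, with 1 point per library and a bar at the mean of the 2 libraries (circles repeat 1, squares repeat 2). The conditions do not overlap in any panel, UVR3 falls from 35.4 and 43.3 TPM to 6.34 and 6.94 TPM, and the UVR8 match is the only one that is higher in Z1.

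Phototropin 2, the blue light receptor that moves chloroplasts away from strong light in *Arabidopsis*, had lower sums in both Z1 libraries, and none of its 7 unigenes was called. In 4 of the 7 both Z1 libraries lay below both Z0 libraries, in 2 above, and 1 overlapped. The unigene of highest level, DN30170_c0_g3, was at 151 and 173 TPM in natural light against 101 and 128 TPM under the nets. The longest one, DN38131_c1_g1, was at 113 and 97.4 TPM in the Z0 libraries, then 73.2 and 78.1 TPM in the Z1 libraries. The next, DN37745_c0_g8, was at 72.9 TPM (Z0-1), 73.4 TPM (Z0-2), 52.6 TPM (Z1-1) and 58.7 TPM (Z1-2). In these 3 the Z1 libraries lay below the Z0 libraries, and the log2 fold changes were -0.51, -0.47 and -0.39 (limma adjusted p = 0.221, 0.207 and 0.258). DN38131_c1_g1 has 2810 nt and the others 822 and 316 nt, and whether they are parts of a single gene was not tested. Of the 2 that were higher in Z1, DN29227_c0_g1 was at 11.0 and 9.04 TPM in natural light against 13.5 and 13.6 TPM under the nets (log2 0.41, and -0.02 with TMM scaling), and DN29227_c0_g4 stayed under 1.22 TPM. Over all 7 PHOT2 matches the sum was 384 and 396 TPM in natural light against 268 and 308 TPM under the nets, and the sums did not overlap under any of the scalings. Phototropin 1 (PHOT1, 3428 nt), the more sensitive receptor of phototropism, had a single unigene at 15.1 and 18.6 TPM in the Z0 libraries, then 20.2 and 21.5 TPM in the Z1 libraries, a log2 difference of 0.30 that was not called and turned to -0.06 with median-ratio scaling and -0.14 with TMM scaling.

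**Figure D4:**
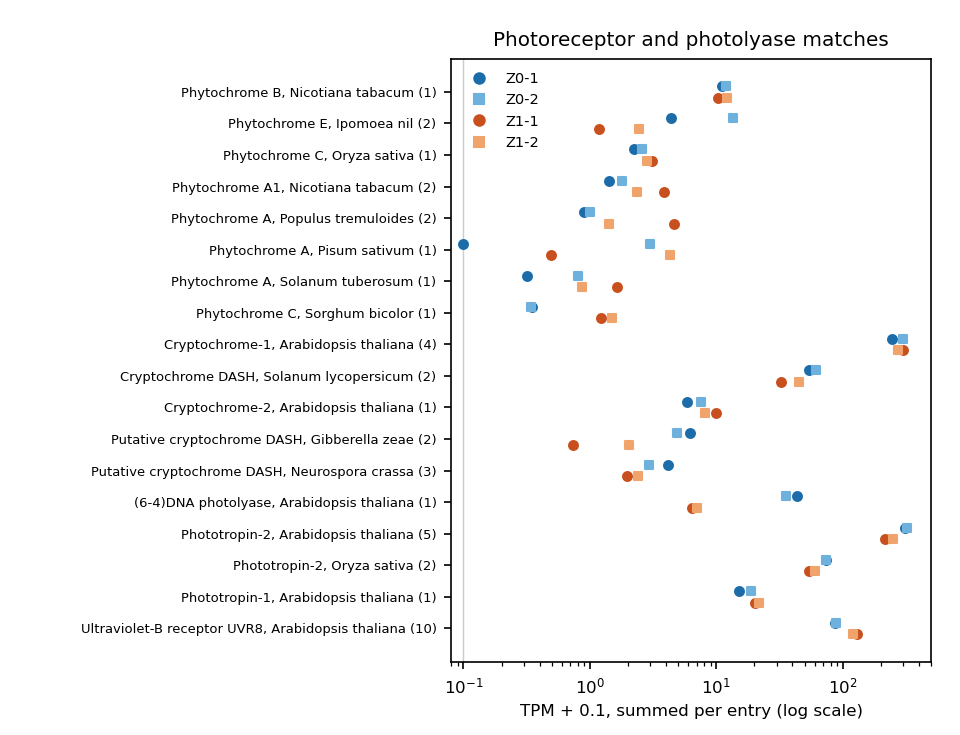
TPM plus 0.1 (x axis, log scale) in the 4 libraries, summed over the unigenes that share a Swiss-Prot entry (y axis, with the species of the entry and the number of unigenes), for all photoreceptor and photolyase matches. CRY1 and PHOT2 have the highest levels, the phytochrome A fragments lie below 5 TPM with wide spread, and the (6-4)DNA photolyase shows the widest gap between Z0 (blue) and Z1 (orange) among entries above 20 TPM.

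UVR8, the UV-B receptor, gave the only member that was called higher under the nets. The unigene (DN30026_c1_g1, 1020 nt) was at 2.27 and 1.42 TPM in natural light against 10.3 and 8.05 TPM under the nets. Both Z1 libraries were above both Z0 libraries, with a log2 fold change of 1.85 (SE 0.29) and a limma adjusted p of 0.0469. The call was lost with median-ratio scaling (1.55, adjusted p = 0.0663), TMM scaling (1.49, adjusted p = 0.0714) and without virus-matched unigenes (1.65, adjusted p = 0.0604). A neighbour in the same component, DN30026_c1_g4, with an Nr match titled as UVR8-like, was at 1 TPM (Z0-1), 0.59 TPM (Z0-2), 6.29 TPM (Z1-1) and 3.83 TPM (Z1-2) (limma adjusted p = 0.0588). The whole component of 8 unigenes was at 19.2 and 42.3 TPM in natural light against 28.8 and 22.6 TPM under the nets, so the component overlapped between the conditions. This sum includes an unannotated unigene, DN30026_c1_g3, that went the other way. It fell from 8.99 and 36.3 TPM in Z0 to 0.16 and 0.11 TPM in Z1 (log2 -4.09, limma adjusted p = 0.0492). DN30026_c1_g6, DN30026_c1_g7 and DN30026_c1_g8, with Pfam annotations of a reverse transcriptase type, were above Z0 in both Z1 libraries. DN30026_c1_g2 and DN30026_c1_g5 overlapped.

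A best match to UVR8 need not be a UV-B receptor, because the protein is built of RCC1 repeats, which other plant proteins share. RCC1 repeats were the first Pfam annotation of 8 of the 10, and the Nr match was titled as UVR8 in 7 of the 10. The unigene of highest level, DN29582_c0_g4, was at 24.8 and 21.1 TPM in the Z0 libraries, then 26.7 and 32.7 TPM in the Z1 libraries. DN29602_c0_g1 was at 12.8 TPM (Z0-1), 12.0 TPM (Z0-2), 19.8 TPM (Z1-1) and 20.4 TPM (Z1-2). The libraries of the conditions did not overlap in either, and the log2 fold changes were 0.36 and 0.65 (limma adjusted p = 0.360 and 0.123). DN31537_c0_g1, at 14.1 and 16.1 TPM in natural light against 16.1 and 12.6 TPM under the nets, overlapped. DN37623_c1_g2, with a PH domain and an uncharacterized Nr match, was at 4.58 and 6.51 TPM in the Z0 libraries, then 13.7 and 9.38 TPM in the Z1 libraries (log2 0.93, limma adjusted p = 0.133). In 8 of the 10 matches both Z1 libraries were above both Z0 libraries in TPM and in none below, while 41.5% and 18.2% of all unigenes were. With median-ratio scaling 5 of the 10 were above and 2 below, and with TMM scaling 4 and 2.

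None of the 7 unigenes for proteins that work next to phytochromes was called. FYPP3, a phosphatase that binds phytochromes, had the highest level of this class, with 30.2 TPM (Z0-1), 38.6 TPM (Z0-2), 49.7 TPM (Z1-1) and 44.7 TPM (Z1-2) (log2 0.45, limma adjusted p = 0.260). EID1, an F-box protein that dampens phytochrome A signals, was at 11.0 and 14.6 TPM in natural light against 11.2 and 12.6 TPM under the nets. FHY1, the shuttle of phytochrome A into the nucleus, was at 2.10 and 4.14 TPM in the Z0 libraries, then 4.80 and 2.79 TPM in the Z1 libraries. Both of these overlapped between the conditions. The 2 unigenes of PKS3, a phytochrome kinase substrate, summed to 5.37 TPM (Z0-1), 4.65 TPM (Z0-2), 1.49 TPM (Z1-1) and 2.20 TPM (Z1-2), a log2 difference of -1.09 for the sum with a limma adjusted p of 0.0835.

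HY5, the bZIP factor that promotes light responses, was higher in both Z1 libraries without passing the test. Its only unigene (DN31368_c0_g2) was at 20.0 and 15.0 TPM in natural light against 33.9 and 28.1 TPM under the nets. The log2 fold change was 0.80 (SE 0.25, limma adjusted p = 0.124), and it was 0.44 with median-ratio scaling and 0.36 with TMM scaling. With TMM scaling the libraries of the conditions overlapped. The PIF factors, bHLH proteins that bind lit phytochromes, were mixed. PIF3 (DN37729_c0_g1) was at 35.1 and 27.9 TPM in the Z0 libraries, then 38.4 and 37.7 TPM in the Z1 libraries, a log2 difference of 0.27 that turned to -0.09 and -0.18 with the median-ratio and TMM scalings. A PIF1 match (DN36669_c0_g1) was at 15.5 TPM (Z0-1), 18.7 TPM (Z0-2), 27.9 TPM (Z1-1) and 26.0 TPM (Z1-2) (log2 0.63, limma adjusted p = 0.144), but its first Pfam annotation is an rRNA-processing domain. The PIF1 match whose first Pfam annotation is a bHLH domain (DN34155_c1_g3) was at 5.29 and 7.62 TPM in natural light against 1.88 and 4.25 TPM under the nets, a log2 difference of -0.92 (limma adjusted p = 0.208). These PIF1 matches thus lay on opposite sides. A shorter PIF3 match (DN25010_c0_g2) was at 8.19 and 5.76 TPM in the Z0 libraries, then 3.73 and 5.53 TPM in the Z1 libraries. PIF7, a factor of the shade response in *Arabidopsis*, was at 1.96 TPM (Z0-1), 3.20 TPM (Z0-2), 1.65 TPM (Z1-1) and 2.78 TPM (Z1-2).

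COP1 and the SPA proteins, repressors of light responses, had 8 unigenes, and COP10, a ubiquitin-conjugating enzyme variant that represses light responses too, had 1. None of these 9 was called, also at an unadjusted p with the same fold. Both Z1 sums of the class lay below both Z0 sums, at 110 and 115 TPM in natural light against 102 and 104 TPM under the nets. The main COP1 unigene (DN37081_c0_g1) was at 25.0 and 21.8 TPM in the Z0 libraries, then 24.8 and 25.3 TPM in the Z1 libraries. SPA2 (DN28866_c1_g4) was at 12.1 and 16.2 TPM in Z0 and 15.4 in both Z1 libraries. The SPA3 match of highest level (DN31557_c0_g1) was at 13.5 TPM (Z0-1), 16.8 TPM (Z0-2), 13.3 TPM (Z1-1) and 15.1 TPM (Z1-2). All 3 overlapped between the conditions. COP10 (DN32461_c1_g1) was at 14.5 and 15.6 TPM in natural light against 11.5 and 11.4 TPM under the nets, without overlap (log2 -0.37, limma adjusted p = 0.308). For COP1, summed over its 2 unigenes, the log2 difference was -0.03 with a 95% interval of -0.51 to 0.46. The median log2 fold change of the class was -0.08 in TPM and -0.43 with median-ratio scaling, where all 9 were negative.

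The FAR1/FHY3 family, transcription factors that descend from transposases and act downstream of phytochrome A in *Arabidopsis*, had 77 of the 153 unigenes in 14 Swiss-Prot entries. Of these, 3 were called lower in Z1 (3.90%) and none higher. A best match to this family need not be such a factor, and whether the unigenes encode factors or transposases was not tested. The summed level was above Z0 in both Z1 libraries in TPM, overlapped with median-ratio scaling and lay below Z0 with TMM scaling. The FHY3 match DN31004_c0_g6 (1086 nt) was at 8.25 and 5.15 TPM in natural light against 0.27 and 0.23 TPM under the nets, a log2 fold change of -2.59 (SE 0.32, limma adjusted p = 0.0380). The FRS3 match DN544_c0_g1 was at 5.54 and 5.20 TPM in Z0 and listed at 0 in both Z1 libraries (limma adjusted p = 0.0343). The FRS5 match DN34566_c0_g5 was at 2.97 and 2.93 TPM in Z0 and also listed at 0 in both Z1 libraries (limma adjusted p = 0.0487). The FRS3 and FRS5 matches are fragments of 202 and 338 nt.

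Other unigenes of the same names went in both directions, and the sums given here include the called ones. Of the other FHY3 matches, DN15391_c0_g1 and DN31662_c0_g2 had log2 fold changes of -0.83 and -0.43. DN17124_c0_g1 and DN28958_c1_g7 had 1.11 and 0.47. All 5 FHY3 matches together were at 17.7 and 16.9 TPM in natural light against 13.5 and 11.7 TPM under the nets, a log2 difference of -0.43, and the longest of them (DN28958_c1_g7, 3339 nt) was higher in Z1, with 5.80 and 6.19 TPM in the Z0 libraries, then 8.96 and 8.44 TPM in the Z1 libraries. The 29 FRS5 matches summed to 54.3 TPM (Z0-1), 46.9 TPM (Z0-2), 64.0 TPM (Z1-1) and 60.3 TPM (Z1-2). The 9 FRS3 matches summed to 38.6 and 43.9 TPM in natural light against 31.9 and 33.1 TPM under the nets. None of these sums was called (limma adjusted p = 0.220, 0.371 and 0.314). The component of the called FHY3 match also held unigenes without a Swiss-Prot match that moved in either direction. DN31004_c0_g7 was listed at 0 in both Z0 libraries and at 4.43 and 5.40 TPM in Z1. DN31004_c0_g1, DN31004_c0_g2, DN31004_c0_g3, DN31004_c0_g4 and DN31004_c0_g9 were also above Z0 in both Z1 libraries. DN31004_c0_g10, DN31004_c0_g8 and DN31004_c0_g5 were listed at 0 in both Z1 libraries. Of these, DN31004_c0_g8 and DN31004_c0_g5 have Nr matches titled as FAR1 family proteins.

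The FAR1/FHY3 unigenes of highest level were long and showed small differences. FRS9 (DN27684_c0_g9) was at 12.0 and 16.3 TPM in the Z0 libraries, then 18.1 and 13.5 TPM in the Z1 libraries. FRS11 (DN29201_c0_g4) was at 9.99 TPM (Z0-1), 12.2 TPM (Z0-2), 16.7 TPM (Z1-1) and 16.8 TPM (Z1-2). The longest FRS3 match (DN26795_c0_g1) was at 10.2 and 11.9 TPM in natural light against 7.70 and 10.3 TPM under the nets. Of these, only FRS11 did not overlap (log2 0.56, limma adjusted p = 0.182). Among unigenes of the family that did not overlap and whose higher condition averaged 5 TPM or more, the highest positive log2 fold changes were those of FRS2, FRS7 and FRS10. FRS2 (DN34823_c0_g1) was at 1.26 and 2.42 TPM in the Z0 libraries, then 7.54 and 5.98 TPM in the Z1 libraries. FRS7 (DN32790_c0_g2) was at 3.89 TPM (Z0-1), 4.73 TPM (Z0-2), 11.8 TPM (Z1-1) and 8.82 TPM (Z1-2). FRS10 (DN30854_c2_g3) was at 2.76 and 2.38 TPM in natural light against 6.06 and 5.24 TPM under the nets. Their log2 fold changes were 1.47, 1.08 and 0.90 and did not pass the test (limma adjusted p = 0.0701, 0.0823 and 0.0982). FRS2 and FRS7 passed it when only unigenes with at least 5 TPM in a library were tested (limma adjusted p = 0.0375 and 0.0416). Both reached 5 TPM only in Z1, so that filter kept them through the condition where they were high. This pass is therefore no added support. Other unigenes of these 3 names differed. The other FRS2 matches had log2 fold changes of 1.35, 0.40 and -1.74. The other FRS7 match had 0.55, and the other FRS10 matches had 0.09 and -0.08. Summed per Swiss-Prot entry, FRS2, FRS7 and FRS10 had 0.81, 0.94 and 0.55, and none was called (limma adjusted p = 0.0984, 0.0863 and 0.181).

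Long and short unigenes of this family are given apart, and the difference between them was not tested. Of the 24 FAR1/FHY3 unigenes of 1500 nt or longer, 18 were above Z0 in both Z1 libraries and none below, and of the 53 shorter ones 22 were above and 10 below, among them all 3 that were called. Over all unigenes of 1500 nt or longer, 55.7% were above and 12.7% below, and over all shorter ones 39.7% and 18.9%, close to the 41.5% and 18.9% of the short family members. With median-ratio scaling 11 of the 24 long ones were above and 3 below, and with TMM scaling 7 and 3. Of the family, 4 unigenes were listed at 0 in both Z1 libraries and 4 in both Z0 libraries, and these 8 had 202 to 1313 nt. Over all unigenes 1.56% were listed at 0 in both Z1 libraries only and 3.65% in both Z0 libraries only. As an example chosen after its values were seen, 6 unigenes of the component DN36631_c1 belong to the family, and in all 6 both Z1 libraries were above both Z0 libraries. None of the 6 was called, and the component added up to 11.6 and 9.92 TPM in the Z0 libraries, then 33.6 and 29.8 TPM in the Z1 libraries (log2 1.48, limma adjusted p = 0.0568).

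Root phototropism proteins, which pass on the phototropin signal, and the related NPY proteins had 12 unigenes together, and none was called. RPT2, which binds phototropin 1, was at 25.9 TPM (Z0-1), 48.8 TPM (Z0-2), 51.9 TPM (Z1-1) and 47.2 TPM (Z1-2), so that only Z0-1 was low. RPT3, also named NPH3, is a close relative of RPT2 and had 4 unigenes. They summed to 8.70 and 4.30 TPM in natural light against 6.08 and 8.10 TPM under the nets, with overlap. Of these, DN29646_c0_g1 was at 2.11 and 1.38 TPM in natural light against 3.23 and 3.03 TPM under the nets (log2 0.60). DN29646_c0_g2 had a log2 difference of 1.03, DN27895_c0_g9 and DN27895_c0_g6 of -0.77 and -0.38, and none of the 4 was called. NPY2 (DN37935_c0_g1), a protein of the same family that acts in auxin-driven organ growth, was at 9.20 and 10.9 TPM in the Z0 libraries, then 5.99 and 6.35 TPM in the Z1 libraries. Its log2 fold change of -0.62 (SE 0.23) did not pass the test (limma adjusted p = 0.160). The other NPY2 matches went in both directions, with log2 fold changes of -0.44, -0.14, 0.01, 0.30 and 0.49. All 6 together were at 16.6 and 18.1 TPM in Z0 and at 13.9 and 14.4 TPM in Z1 (log2 -0.28, limma adjusted p = 0.381).

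The members shared annotations that the choice of names did not use. The study drew these too from alignments of the same unigenes, so they are no separate support for the names. Whether they derive from the same protein matches was not tested. Of the 153, 73 carried the GO term for a response to red or far-red light, which 85 unigenes of the whole table had, and 31 were in the KEGG pathway of the plant circadian rhythm, which had 282. In the FAR1/FHY3 family 58 of 77 had a FAR1, MULE or SWIM domain as their first Pfam annotation, the parts left from the transposase. By best Nr match, 62 of the 153 members came closest to sesame (*Sesamum*), which belongs to the same order as lilac.

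The rest of the light pathway was followed in 5 lists with 118 unigenes, of which 2 were called higher and 2 lower in Z1 (3.39%, against 5.0% of all unigenes). In the list of shade-avoidance and light-response genes, 1 of 34 was called higher and 2 lower. The 2 lower ones were the only matches to HAT4, also called ATHB-2, a homeobox factor that is induced in *Arabidopsis* when red light falls relative to far-red light. DN30154_c0_g5 was at 41.5 TPM (Z0-1), 35.0 TPM (Z0-2), 3.63 TPM (Z1-1) and 6.54 TPM (Z1-2) (log2 -2.73, SE 0.32, limma adjusted p = 0.0369). DN29719_c0_g1 was at 31.1 and 25.0 TPM in natural light against 3.26 and 6.92 TPM under the nets (log2 -2.31, SE 0.37, limma adjusted p = 0.0480, and 0.0501 with median-ratio scaling). They have 381 and 1218 nt, and whether they are parts of a single gene was not tested. The component of DN30154_c0_g5, which has no Pfam annotation, also held a HAT22 match with a homeobox domain (DN30154_c0_g2) that went the other way. It was at 11.2 and 13.9 TPM in Z0 and at 39.4 and 17.9 TPM in Z1 (log2 1.04, limma adjusted p = 0.193). The unigene of this list called higher was a fragment of 227 nt matched to bHLH148, from 0.49 and 0.46 TPM in Z0 to 4.82 and 5.71 TPM in Z1 (log2 2.08, limma adjusted p = 0.0385). Another bHLH148 match of 1030 nt (DN33797_c1_g4) was at 15.7 and 28.3 TPM in the Z0 libraries, then 18.7 and 19.1 TPM in the Z1 libraries.

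**Figure D5:**
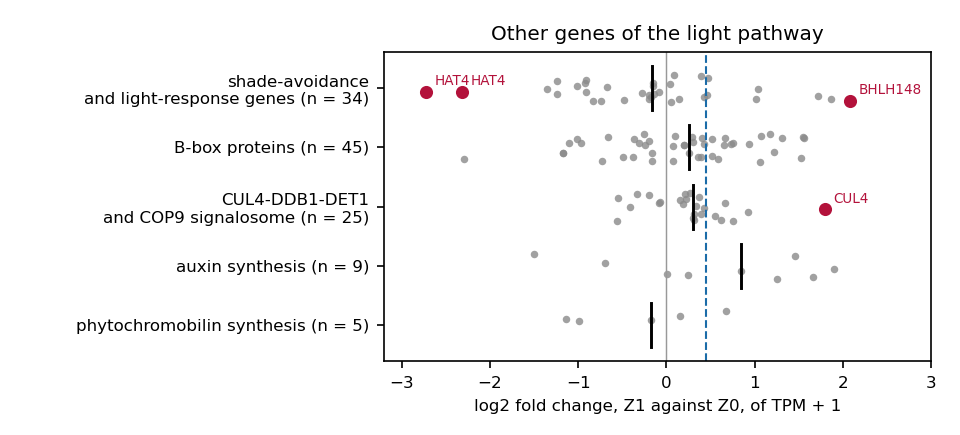
The log2 fold change of Z1 against Z0 on the log2(TPM + 1) scale (x axis) of 118 unigenes in 5 further lists of the light pathway (y axis, with the number of unigenes). Points are unigenes, black bars medians, the dashed line the median of all unigenes at 0.45, and red points the 4 called unigenes, with both HAT4 matches on the left and CUL4 and bHLH148 on the right.

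In the list of the CUL4-DDB1-DET1 ligase and the COP9 signalosome, partners of COP1, 1 of 25 unigenes was called higher and none lower. It was 1 of 9 cullin-4 matches (CUL4, DN36655_c1_g1), with 7.73 TPM (Z0-1), 5.30 TPM (Z0-2), 21.5 TPM (Z1-1) and 28.5 TPM (Z1-2) (log2 1.80, limma adjusted p = 0.0475), and its call was lost with both scalings and without virus-matched unigenes (adjusted p = 0.0651 to 0.0851). Of the 45 B-box proteins, many of which work with HY5, none was called, and 7 were higher and 5 lower at an unadjusted p under 0.05 with the same fold (26.7%, against 24.2% of all unigenes). None of the 9 unigenes of auxin synthesis was called, with 4 higher and 1 lower at an unadjusted p (against 16.5% and 7.71% of all unigenes), and none of the 5 for the phytochrome chromophore at either p. The heme oxygenase HO1, which makes the precursor of this chromophore, was at 87.7 and 104 TPM in natural light against 104 and 109 TPM under the nets in its main unigene.

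With log2(TPM + 5), and without Z0-1, Z0-2 or Z1-2, 0 of the 73159 unigenes were called, so these fits say nothing about the members. On log2(TPM + 0.1), where 553 unigenes were called, UVR3 was the only member among them. Without Z1-1, where 8378 unigenes were called, 3 members were called higher and none lower. In the 4 fits that left out a library UVR3 had a log2 fold change of -2.54 to -2.25 and a limma adjusted p of 0.0721 to 0.260.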

How the data were processed

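Leaf RNA of 2 libraries in natural light and 2 under black nets was sequenced on Illumina machines, and per the labels and the study's methods the authors trimmed the reads (cutadapt, FastQC), assembled them with Trinity, kept the longest transcript as the unigene and quantified it with Salmon. The deposited values are TPM, which the authors scaled to the total of each library. The sources used here give neither tool versions nor read depth. The methods speak of co-assembly with other species, and the labels call the material genomic DNA although the extraction text describes poly(A) RNA. Sample labels give 1 entry per condition, and the repeats were taken from the column names.

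Log2(TPM + 1) of all 73159 unigenes was fitted with limma 3.58.1 (trend) in R 4.3.3, with Benjamini-Hochberg adjustment over all, and tested on simulated data. Every unigene reaches at least 1.01 TPM in a library. With 2 against 2 libraries an exact permutation test cannot go below p = 0.333, so none is given. Members and lists were chosen with earlier results of these data known. Genes were named where called, where among the 3 of highest level in a class, where among the 5 largest changes in each direction (no overlap, and 5 TPM or more on average where higher), or as called members of the wider lists. Unigenes outside this rule (such as phytochrome A, CRY2, PHOT1, PIF7, PKS3, HO1 and component neighbours) were named after their values were seen or for a shared name. Alternatives were the pseudocount, low-value filter, scaling, thresholds, replicate block, leaving out a library, leaving out virus-matched or rice-matched unigenes, and sums per Swiss-Prot entry or component.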

Additional observations from a re-analysis of the deposited data

How the results depend on the processing

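Of the 153 members, 1 was called higher and 4 lower. The filter of at least 5 TPM in a library can keep a unigene through the condition where it is high, so its counts are no added support. The higher count became 0 with a pseudocount of 0.1 or 5, median-ratio or TMM scaling, without virus-matched unigenes, and in sums per Swiss-Prot entry or per component, 2 without rice-matched unigenes, 3 with at least 5 TPM in a library, 8 at an unadjusted p, and 0 to 3 on leaving out a library. The lower count became 1 with a pseudocount of 0.1 and in entry sums, 0 with a pseudocount of 5 and in component sums, 7 without rice-matched unigenes, 9 at an unadjusted p, and 0 to 0 on leaving out a library. The members' median of 0.21 became 0.28 and 0.10 with pseudocounts of 0.1 and 5, 0.14 with the filter, 0.011 without virus-matched unigenes, 0.32 in component sums and 0.13 to 0.26 on leaving out a library, and it reversed to -0.057 and -0.11 with median-ratio and TMM scaling. The wider lists had 2 higher and 2 lower. Their higher count became 0 with either pseudocount and in component sums, 1 with TMM scaling, with the replicate block, without virus-matched unigenes and in entry sums, 6 without rice-matched unigenes, 8 with the filter, 15 at an unadjusted p and 0 to 2 on leaving out a library. Their lower count became 0 with either pseudocount and in component sums, 1 in entry sums, 5 with the filter or TMM scaling, 12 at an unadjusted p and 0 to 0 on leaving out a library.

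Over all unigenes the calls of 2344 higher and 1317 lower became 1464 and 1937 with median-ratio scaling, 1327 and 2264 with TMM scaling, 1593 and 1811 without virus-matched unigenes, 354 and 199 with a pseudocount of 0.1, 0 with a pseudocount of 5, 5156 and 2606 without rice-matched unigenes, and 8233 and 145 without Z1-1. They became 0 on leaving out each of the other libraries, so those fits and a pseudocount of 5 could call no member. Of all 153 members, 26 turned sign with median-ratio scaling, 32 with TMM scaling and 17 without virus-matched unigenes, and none of these had a log2 fold change above 0.41 in size. Among the unigenes named by the rule, those that turned with median-ratio and TMM scaling were PHYC DN25597_c0_g3 (-0.040 and -0.10), FRS9 DN27684_c0_g9 (-0.20 and -0.28), SPA2 DN28866_c1_g4 (-0.22 and -0.30), CRY1 DN29069_c0_g1 (-0.32 and -0.41), UVR8 DN29582_c0_g4 (-0.0049 and -0.086), FHY1 DN33191_c0_g5 (-0.051 and -0.11), COP1 DN37081_c0_g1 (-0.27 and -0.35), CRY1 DN37677_c0_g3 (-0.27 and -0.36) and PIF3 DN37729_c0_g1 (-0.095 and -0.18). Without virus-matched unigenes, of the same unigenes, FRS9 (-0.12), SPA2 (-0.14), both CRY1 (-0.24 and -0.19), COP1 (-0.19) and PIF3 (-0.014) reversed. On leaving out a library in turn, the fold change took either sign for FRS9 (-0.053 to 0.36), SPA2 (-0.066 to 0.33), CRY1 DN29069_c0_g1 (-0.096 to 0.19), CRY1 DN37677_c0_g3 (-0.081 to 0.29), FHY1 (-0.13 to 0.60), EID1 DN25642_c0_g1 (-0.27 to 0.11), UVR8 DN31537_c0_g1 (-0.24 to 0.088), SPA3 DN31557_c0_g1 (-0.23 to 0.070) and PHYB DN27655_c0_g1 (-0.16 to 0.060). Sums per component or entry give no value of a single unigene. The cause of these shifts was not tested.

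The deviations of same-numbered libraries from the means of their conditions had a correlation of r = -0.09. With 2 libraries per condition this cannot show whether the numbers mark a shared tree, day or batch. The sources used here do not say what the numbers mean. With the replicate block 1 member was higher and 3 lower, the wider lists had 1 higher and 2 lower, the members' median stayed at 0.21 and 3999 in place of 3661 unigenes were called. The FRS5 match (adjusted p = 0.0746) and CUL4 (adjusted p = 0.0549) were not called.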

Other observations

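The 24 unigenes that carried a light-signalling name but matched rice in Nr were nearly confined to Z1-2. They summed to 1.95 TPM in Z0-1, 1.66 TPM in Z0-2, 0 TPM in Z1-1 and 117 TPM in Z1-2. All 5648 rice-matched unigenes together summed to 2955, 2940, 2436 and 32956 TPM in the same order, so Z1-2 stood apart in both. Their source was not tested.

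Some unigenes of the wider light pathway, chosen after their values were seen, did not overlap between the conditions and did not pass the test. A match to the auxin synthesis enzyme TAR4 (DN35346_c0_g1) was at 42.2 and 40.9 TPM in natural light against 72.3 and 78.8 TPM under the nets (log2 0.85, limma adjusted p = 0.0749). Another TAR4 match (DN35346_c0_g2) was at 6.32 and 1.74 TPM in Z0 and at 3.03 and 5.99 TPM in Z1, with overlap. A match to DET1, a partner of the CUL4 ligase (DN34083_c0_g1), was at 42.5 and 45.9 TPM in natural light against 30.5 and 35.3 TPM under the nets (log2 -0.42, limma adjusted p = 0.253). Another DET1 match (DN34083_c0_g3) was at 0.90 and 0.76 TPM in Z0 and at 0.90 and 1.72 TPM in Z1, with overlap. Of all unigenes, 59.7% did not overlap between the conditions, so the lack of overlap in DN35346_c0_g1 and DN34083_c0_g1 is common.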
